A study of Takifugu fasciatus with 6 samples.

Results

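Nuclear receptors are transcription factors that bind small lipid-soluble ligands, such as steroids, retinoic acid, thyroid hormone, vitamin D, fatty acids and oxysterols, and switch the genes they sit on. Many work as heterodimers with RXR, others as homodimers or monomers, and orphan members have no established hormone. In the liver they are known for setting the daily and feeding-linked programme of lipid, bile acid and glucose genes, with coactivators and corepressors passing the signal to chromatin. The genes described here were chosen by the gene name of their best Swiss-Prot match. Names of the NR0 to NR6 series were taken where the subgroup letter was A to H, without NR1H4 and NR1D1. The rule thus did not select NR1I names, those of the xenobiotic receptors PXR and CAR, nor PPARA. It also took PPARD, PPARG, the retinoic acid receptors (RAR), the RXRs, the oestrogen receptors (ESR) and the oestrogen-related receptors (ESRR). VDR, certain ROR genes and names that begin as a thyroid hormone receptor's does (THRA, THRB) completed the rule. This gave 55 of the 20990 genes in the deposited table of liver RNA sequencing from the pufferfish *Takifugu fasciatus*. Of these, 51 were receptors, under 34 different receptor names, and 4 were coactivators whose names start like a receptor's: PPARGC1A, Ppargc1b and the genes matched to THRAP3 and thrap3. The match is to the closest protein of any species, so the spelling of a name follows that species. Where genes share a name, the last 5 digits of the identifier follow in brackets, so that Nr1d2 (02375) is fugu_GLEAN_10002375.

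EG (experimental group; libraries Ga, Gb and Gc) were juvenile fish acclimated at 26 °C for 2 weeks, cooled to 19 °C, held there for 12 h, cooled again and kept at 12 °C for 24 h. CG (control group; libraries G1, G2 and G3) were fish of the same stock and acclimation that stayed at 26 °C throughout. Both groups were fed a commercial diet until a day before treatment, and each library held liver tissue from several fish, and the error of every value below is the spread over pools, which hides differences between single fish. Sampling was at this end point only, so the effects of cooling, of holding at 19 °C and of the stay at 12 °C cannot be told apart.

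The 6 libraries held 31150888 to 45548824 counts. Spearman correlations between libraries of the same group were at least 0.958 and those between groups at most 0.905, and edgeR's typical variation between replicates was 29.6%. Levels below are in CPM, the share of a library's counts scaled up to a common total, after TMM scaling, which puts libraries on the scale of the bulk of their genes. Each adjusted p comes from the quasi-likelihood test of edgeR, corrected by Benjamini-Hochberg over the 14357 genes with enough counts, and a gene was called when it was under 0.05. Hepatocyte markers dominated both groups, with a summed level of 264000 to 322000 CPM in EG and 217000 to 244000 CPM in CG. After TMM scaling all genes together summed to 1030000 to 1210000 CPM in EG and 872000 to 911000 CPM in CG. Differences between the groups in summed levels, here and below, therefore depend on the scaling. Markers of exocrine pancreas, tissue that lies within or beside the liver of many fishes, were low in Gb and G3: they summed to 18148, 663 and 23550 CPM in Ga, Gb and Gc, against 19472, 26938 and 6249 CPM in G1, G2 and G3.

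Of the 55 genes, 44 had enough counts to be tested. In EG, 9 of them were higher and 11 lower than in CG, and 24 did not pass, so 45.5% were called, against 45.4% of all tested genes. Over all tested genes 23.7% were higher and 21.7% lower, and the calls in each gene list below stand beside these shares. The median log2 fold change was -0.07 over the 44 genes and -0.03 over all tested genes, and 22 of the 44 had groups that did not overlap, against 57.8% of all. Past a 2-fold change there were 9 higher and 7 lower, where 13.7% of all tested genes were higher and 15.4% lower. That balance turned with library totals, which gave 6 higher and 9 lower, and with limma on log2(FPKM + 1), which gave 6 and 7. The share of calls among these genes was thus close to that of the whole table. Among the 40 tested receptors, 8 were higher and 10 lower. By family, the calls among REV-ERB genes, PPARD and PPARG, LXR alpha and NR5A2 were higher in EG. LXR and NR5A had 1 tested gene each. Calls among COUP-TF, RXR, ESRR and vitamin D receptor genes were lower, and those among retinoic acid receptors went both ways. None of the tested genes for glucocorticoid, mineralocorticoid and oestrogen receptors passed in the main edgeR fit, with TMM and all 6 libraries. In that fit 0 of 7 had an unadjusted p under 0.05, and 0 of 7 passed by DESeq2. In some other settings, given below, nr3c1 (04877), esr1 and esr2 (04102) did pass.

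**Figure D1:**
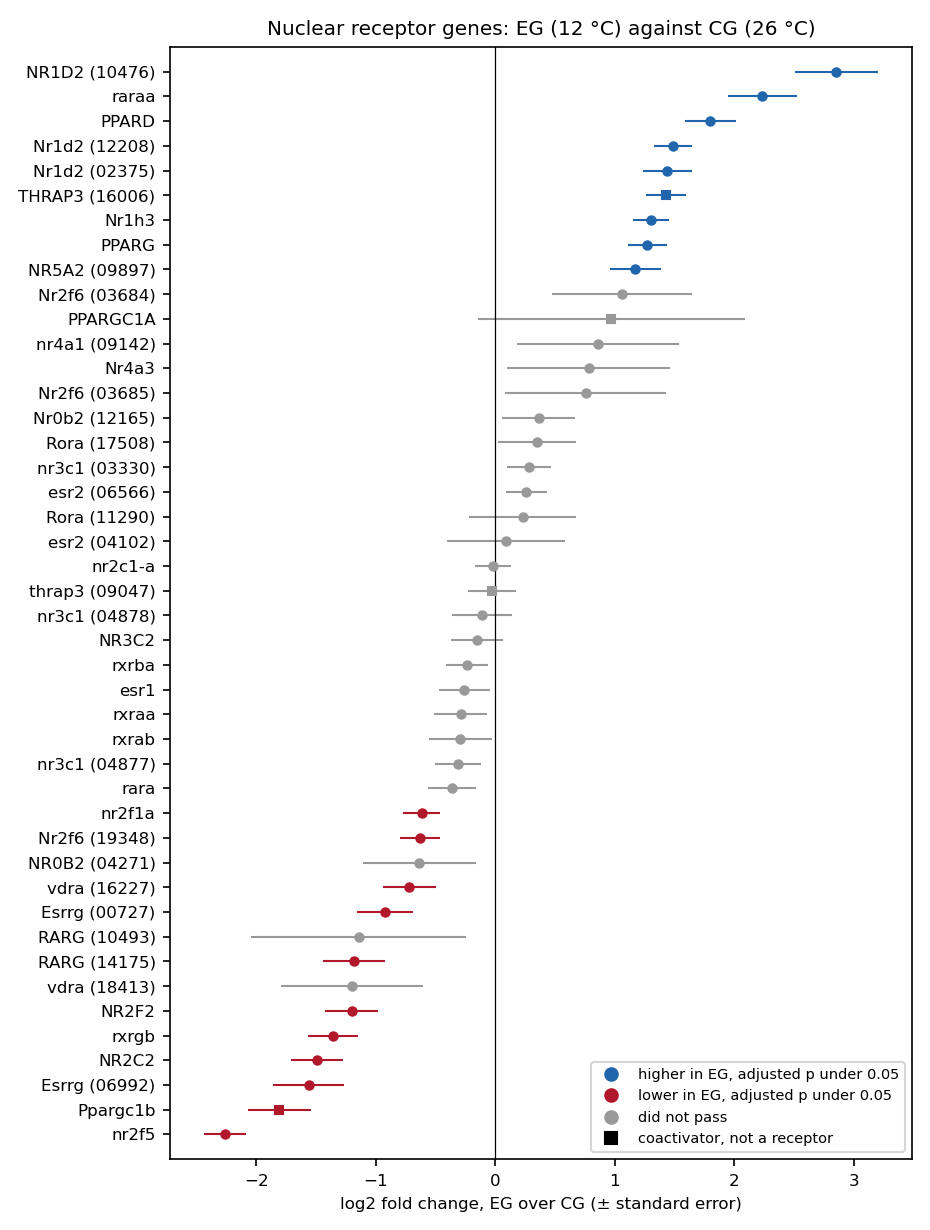
Log2 fold change of each of the 44 tested genes, EG over CG, on the x axis, with the standard error as the bar; blue marks genes higher in EG, red genes lower in EG, grey genes that did not pass, and squares the 4 coactivators. The calls run from 2.85 for NR1D2 (10476) to -2.26 for nr2f5, and the widest bars belong to genes of few counts such as PPARGC1A.

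In raw counts the 51 receptors together took 0.076%, 0.101% and 0.107% of Ga, Gb and Gc, against 0.0847%, 0.0781% and 0.0746% of G1, G2 and G3, a share in which the groups overlapped. After TMM scaling the same genes summed to 922 to 1220 CPM in EG and 651 to 748 CPM in CG, and the groups did not overlap, so that the total depends on the scaling. Per coding length they were ordinary genes: the median of the tested receptors was 6.38 FPKM, against 4.95 FPKM for all tested genes, and 15 of the 40 lay below the median of all tested genes. Their gene models had a median length of 1410 bases, against 1266 for all genes. In the annotation, 45 of the 51 carried the term zinc ion binding, which 5.85% of all genes carry. A term containing sequence-specific DNA binding was carried by 47 of them and by 4.01% of all genes. The genes were chosen by protein name, so these terms are no separate evidence of a receptor fold. Among these 51 receptors, the order of levels per length changed at the top. In EG the most abundant receptor was Nr1d2 (02375) at 120 ± 13.5 FPKM (SD, n = 3, as in all values with ± below), followed by Nr1d2 (12208) at 81.0 ± 16.4 FPKM, esr2 (06566) at 79.1 ± 17.8 FPKM and Nr1h3 at 72.1 ± 12.9 FPKM, and these last 3 did not differ beyond their spread. In CG the first was esr2 (06566) at 83.2 ± 1.69 FPKM, above Nr1d2 (02375) at 56.2 ± 12.9 FPKM, and then Nr1h3 at 36.9 ± 2.79 FPKM and Nr1d2 (12208) at 36.4 ± 3.16 FPKM, which did not differ beyond their spread.

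The REV-ERB receptors are repressors of the circadian clock that bind haem and compete with the ROR activators for the same DNA sites. The largest rise among the tested receptors of this set was in a REV-ERB gene. Of the 5 tested REV-ERB and ROR genes 3 rose, all of them REV-ERB genes. Nr1d2 (02375; scaffold170, bases 81607 to 86221, + strand) had 237, 222 and 278 CPM in Ga, Gb and Gc, against 112, 90.4 and 69.7 CPM in G1, G2 and G3. Its groups lay far apart, and the fold change was 2.71 (log2 1.44, standard error 0.20, adjusted p = 0.000994). Nr1d2 (12208; scaffold102, bases 2218589 to 2222668, + strand) had 118, 147 and 161 CPM in EG, against 49.1, 48.5 and 54.8 CPM in CG. Every EG library exceeded every CG library by more than the spread within either group (log2 fold change 1.49, standard error 0.16, adjusted p = 0.000329). NR1D2 (10476; scaffold184, bases 1396968 to 1401228, + strand) was much rarer, with 19.0, 9.87 and 25.1 CPM in EG and 3.01, 2.14 and 2.32 CPM in CG. It rose 7.22-fold, the largest fold among the 44 genes, with Gb the lowest EG library (log2 2.85, standard error 0.35, adjusted p = 0.000556). Another NR1D2 gene (14174) was uneven and did not pass the filter on low counts. It had 26, 4 and 119 counts in Ga, Gb and Gc, against 8, 0 and 4 in G1, G2 and G3, so that Gb lay inside the CG range. Without the filter on low counts its log2 fold change was 3.82 (adjusted p = 0.037).

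The tested Rora genes, activators of the same clock loop, did not pass. A RORB gene that the name rule left out was called lower and is given further below. Rora (17508) had 3.30, 2.70 and 2.75 CPM in EG and 2.51, 2.95 and 1.40 CPM in CG, and Rora (11290) had 1.89, 1.78 and 0.965 CPM in EG and 1.03, 2.00 and 0.924 CPM in CG. Both overlapped between groups (adjusted p = 0.416 and 0.709), and the small positive value of Rora (11290), 0.23 on the log2 scale, turned to -0.10 when library totals replaced TMM. Summed over the REV-ERB and ROR genes of this set, the level was 380 to 472 CPM in EG and 129 to 167 CPM in CG. Of 20 tested clock genes in a list of those bound by these receptors or acting in the same loop, 8 rose and 5 fell (median log2 fold change 0.45). The share called was 65%, against 45.4% of all tested genes. With library totals, and with limma on log2(FPKM + 1), 6 rose and 7 fell. ARNTL2 (05236), a partner of CLOCK, had 53.9, 106 and 87.3 CPM in EG and 3.27, 3.88 and 6.61 CPM in CG (log2 fold change 4.17), and the period repressors PER2 (06431), PER3 and PER1 rose by 3.95, 2.14 and 1.91. Without G1, or without G2, 3 of these clock genes fell rather than 5.

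**Figure D2:**
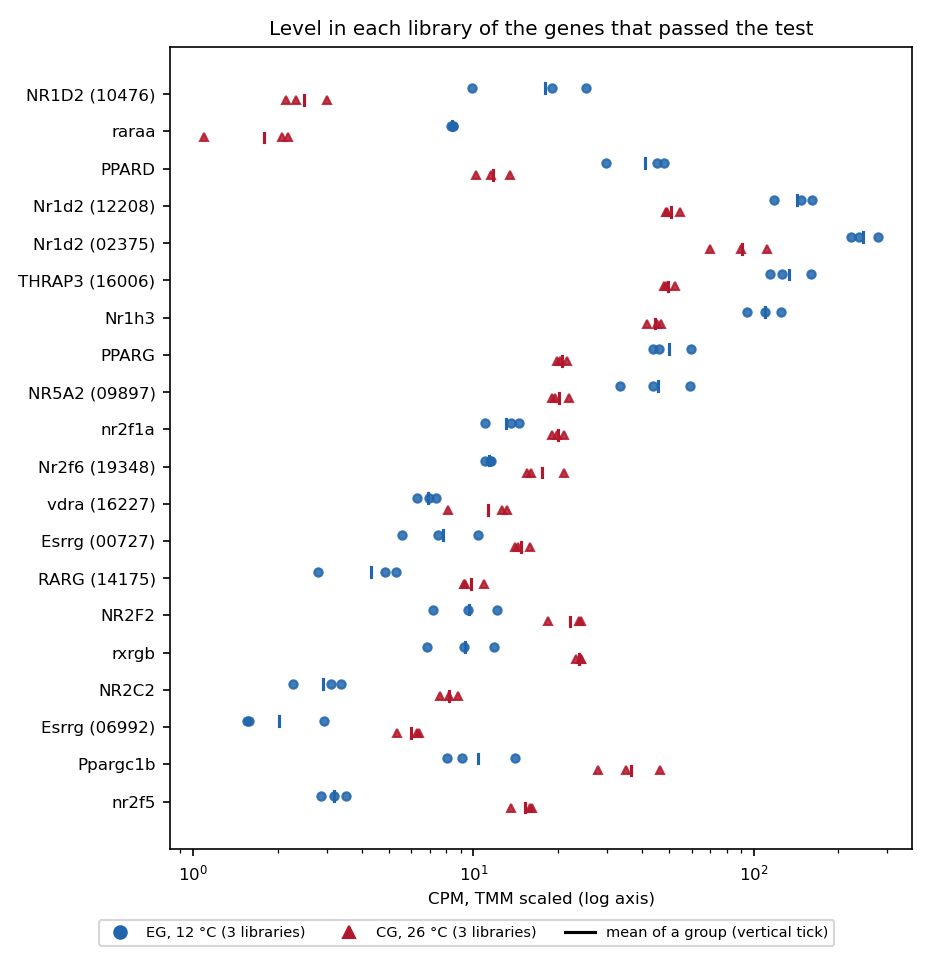
CPM after TMM scaling, on a log axis, of the 20 genes that passed the test, with EG libraries as blue circles, CG libraries as red triangles and group means as vertical ticks. The groups are apart in all 20, most narrowly in vdra (16227), whose highest EG library has 7.37 CPM and lowest CG library 8.09 CPM.

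The fatty acid receptors PPARD and PPARG and the oxysterol receptor LXR alpha, all of which bind DNA beside RXR, were higher in the cold. PPARD, a receptor that drives fatty acid oxidation in many tissues (scaffold110, bases 1144681 to 1146763, - strand), had 29.8, 47.9 and 45.0 CPM in EG and 11.5, 13.5 and 10.2 CPM in CG. The rise was 3.48-fold (log2 1.80, standard error 0.21, adjusted p = 0.000484), and the lowest EG library, Ga, still had more than double the highest CG library. PPARG, known in mammals as the master regulator of fat cells (scaffold272, bases 1906697 to 1924228, - strand), had 43.7, 46 and 59.8 CPM in EG, against 21.6, 20.4 and 19.8 CPM in CG. It rose 2.42-fold with very even CG libraries (log2 1.27, standard error 0.16, adjusted p = 0.000629). Nr1h3, which encodes LXR alpha (scaffold65, bases 2804928 to 2807246, - strand), had 94.5, 110 and 125 CPM in EG and 46.7, 41.7 and 45.1 CPM in CG. The rise was 2.47-fold (log2 1.30, standard error 0.15, adjusted p = 0.000475). Among the risen receptor names of this set, Nr1h3 was the second most abundant after Nr1d2. Of 12 tested adipocyte markers, 4 were higher (33.3%) and 1 lower (8.33%) in EG, against 23.7% and 21.7% of all tested genes. Their median log2 fold change was -0.27, and with library totals 2 were higher and 2 lower. The part of fat cells in the result was not tested.

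Of 34 tested genes that PPARs control in other vertebrates, 41.2% were called, against 45.4% of all tested genes. Among them 11 rose (32.4%) and 3 fell (8.82%), against 23.7% and 21.7% of all (median log2 fold change 0.35). This split depends on scaling, since with library totals 5 rose and 5 fell. FABP7, a fatty acid binding protein, had 16.4, 13.5 and 20.6 CPM in EG and 1.22, 0.976 and 0.868 CPM in CG (log2 fold change 4.04), LPL, which frees fatty acids from lipoproteins, rose by 2.71 and the uncoupling protein gene ucp2 (15142) by 1.98. In the opposite direction, ehhadh, an enzyme of peroxisomal fatty acid oxidation, had 4.93, 8.25 and 7.84 CPM in EG and 51.0, 37.7 and 45.1 CPM in CG (log2 fold change -2.67). Of 15 tested LXR target genes, 4 rose and 1 fell, so 33.3% were called, and the median was -0.14. The risen ones were LPL, which is in both lists, CYP7A1 (03050), the rate-limiting enzyme of bile acid synthesis (1.93), FASN, the fatty acid synthase (1.78), and SREBF1, the regulator of fat synthesis (1.54). FASN had 299, 197 and 299 CPM in EG, against 78.1, 85.1 and 67.4 CPM in CG. With library totals 4 of these LXR targets rose and 4 fell. Among 13 genes that make oxysterols and bile acids or carry bile acids, 4 rose and 3 fell: CYP7A1 (03050) and both CYP8B1 genes, which steer bile acid composition, rose by 1.93, 1.5 and 1.49, while Cyp27a1 (04427), which makes 27-hydroxycholesterol, fell by 1.27 on the log2 scale. Leaving out G1, Ga or Gc left 2 that rose, and leaving out G1, G2, Ga or Gb left 1 that fell.

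NR5A2 (LRH-1) is an orphan receptor that activates bile acid and cholesterol handling genes in the liver and acinar genes in the pancreas. NR5A2 (09897; scaffold163, bases 386510 to 412087, - strand) had 33.3, 43.6 and 59.3 CPM in EG, against 21.9, 19.6 and 19.0 CPM in CG. It rose 2.25-fold and its EG libraries were spread more widely than its CG libraries (log2 1.17, standard error 0.22, adjusted p = 0.00336). Exocrine pancreas markers were lowest in Gb and G3, and their part in this result was not tested. A second NR5A2 gene (01293) had 0 counts in every library, and nr6a1a, a germ cell receptor gene 14.1 kb from it with 2 genes between them, had 1, 4 and 0 counts in EG and 8, 5 and 1 in CG. SHP, encoded by NR0B2, is a receptor without a DNA-binding domain that represses NR5A2 and other receptors. Nr0b2 (12165) had 7.33, 6.89 and 13.9 CPM in EG and 7.64, 8.51 and 5.71 CPM in CG, and NR0B2 (04271) had 1.92, 4 and 1.26 CPM in EG and 3.27, 2.46 and 5.40 CPM in CG. The groups overlapped in both, and 0 of the 2 passed (lowest adjusted p = 0.303; 0 at an unadjusted p under 0.05 and 0 by DESeq2). The related adrenal receptor NR0B1 was at 0 counts in all EG libraries for both of its genes, with 1, 15 and 3 counts in G1, G2 and G3 for (13709) and 1, 1 and 4 for (17742), too few to be tested.

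Retinoic acid receptors went in both directions. The 5 genes, the untested RARB included, summed to 16.4 to 19.6 CPM in EG and 17.9 to 20.7 CPM in CG, and of the 4 tested 1 was higher and 1 lower. raraa, a fish RAR alpha gene (00373; scaffold219, bases 97748 to 108346, + strand), had 8.42, 8.29 and 8.42 CPM in EG and 2.08, 1.09 and 2.18 CPM in CG. This 4.70-fold rise came with almost identical EG libraries (log2 2.23, standard error 0.29, adjusted p = 0.00069). The other RAR alpha gene, rara (12012), had 5.70, 5.08 and 4.15 CPM in EG and 6.49, 6.88 and 5.80 CPM in CG, and did not pass although its groups did not overlap (log2 fold change -0.36, adjusted p = 0.18). With library totals it did pass, at -0.70 (adjusted p = 0.0283). It also passed with upper quartile factors, at -0.55 (adjusted p = 0.0492), and with limma on log2(FPKM + 1), at -0.35 (adjusted p = 0.0494). The log2 ratio of raraa to rara in the same library was 0.56, 0.71 and 1.02 in EG, against -1.64, -2.65 and -1.41 in CG. Such a ratio does not depend on the scaling between libraries, but its sign depends on gene length. The rara model has 5685 bases and the raraa model 1209. Per length, raraa had 1.94, 0.992 and 2.07 FPKM in G1, G2 and G3, and rara 1.29, 1.33 and 1.17 FPKM. By that measure raraa was already the higher in G1 and G3. RARG (14175; scaffold110, bases 2112315 to 2134941, + strand) had 4.85, 2.79 and 5.29 CPM in EG, against 10.9, 9.25 and 9.30 CPM in CG, and fell 2.27-fold (log2 -1.18, standard error 0.26, adjusted p = 0.00728). RARG (10493) was near the limit of detection, with 0.40, 0 and 0.380 CPM in EG and 0.787, 0.465 and 0.504 CPM in CG, and did not pass (adjusted p = 0.331). RARB had 8, 8 and 9 counts in EG and 19, 21 and 5 in CG, and was not tested. The RARG (14175) model starts 13.4 kb from the untested NR1D2 (14174) on the opposite strand, with 0 genes between them.

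RXR is the shared partner of RAR, PPAR, LXR and VDR. Of its 4 genes only rxrgb passed the test, and it fell. rxrgb (scaffold291, bases 230310 to 246345, + strand) had 6.82, 9.24 and 11.9 CPM in EG, against 23.2, 24.1 and 24.2 CPM in CG. The drop was 2.56-fold and the groups lay far apart (log2 -1.36, standard error 0.21, adjusted p = 0.00144). The other 3 had smaller negative values that did not pass. rxrba had 9.99, 14.9 and 13.4 CPM in EG and 15.3, 14.7 and 15 CPM in CG. rxraa had 9.06, 7.46 and 10.7 CPM in EG and 12.6, 12.4 and 8.29 CPM in CG, and rxrab, a short model 1.43 kb from rxraa, had 2.69, 2.16 and 1.87 CPM in EG and 2.84, 2.72 and 2.69 CPM in CG. Their adjusted p were 0.311, 0.32 and 0.395. Under other settings rxraa passed with library totals, at -0.63 (adjusted p = 0.0427), and rxrab with limma on log2(FPKM + 1) and log2(FPKM + 0.1), at -0.57 and -0.64 (adjusted p = 0.0205 and 0.0212). The summed RXR level was 28.6 to 37.8 CPM in EG and 50.1 to 53.9 CPM in CG, whereas PPARD and PPARG together had 73.6 to 105 CPM in EG and 30.0 to 33.9 CPM in CG.

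Genes that supply and remove retinoids changed in both directions, with 5 higher and 6 lower of 22 tested. BCO1, which cleaves carotene into retinal, had 2.40, 1.37 and 3.77 CPM in EG and 14.5, 17.3 and 21.3 CPM in CG (log2 fold change -2.81), LRAT (13078), which esterifies retinol for storage, fell by 2.32 and ALDH1A2, which makes retinoic acid, by 1.72 on the log2 scale. rdh10a, which oxidises retinol to retinal, rose by 2.55 at a low level of 3.12, 1.71 and 1.58 CPM in EG and 0.477, 0.302 and 0.308 CPM in CG. Of 5 tested retinoic acid targets, 2 fell, among them TGM2, a transglutaminase, by 0.52, and 1 of the 2 no longer passed without G1, G2 or Ga. The stellate cells of the liver store retinoids, and LRAT is also in the list of endothelial and stellate markers. Of 31 tested markers 8 were lower in EG, 25.8% against 21.7% of all tested genes, and 0 were higher. With library totals 16 were lower and 0 higher, in a setting where 4514 of all 14357 tested genes were lower. By DESeq2 11 were lower and 2 higher. The list summed to 1050 to 1800 CPM in EG and 1590 to 2050 CPM in CG. STAB2, a scavenger receptor of sinusoidal endothelium, had 5.46, 4.57 and 6.67 CPM in EG, against 26.6, 29.4 and 16.9 CPM in CG. The part of these cells in the falls of rxrgb, RARG and the genes named next was not tested, and in bulk liver fewer cells of a type and less RNA per cell cannot be told apart.

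The COUP-TF genes (NR2F) encode orphan receptors that mostly repress and that, in mammals, are prominent in veins, stroma and developing organs. All 4 calls among their 6 tested genes were lower in EG. nr2f5, a fish COUP-TF (scaffold16, bases 64909 to 75001, - strand), had 3.17, 2.86 and 3.51 CPM in EG and 16.2, 13.6 and 15.9 CPM in CG. It fell 4.79-fold, the largest drop among the 44 genes and the smallest adjusted p (log2 -2.26, standard error 0.18, adjusted p = 0.000108). NR2F2 (scaffold108, bases 396326 to 423872, - strand) had 7.17, 9.59 and 12.1 CPM in EG, against 24.1, 23.8 and 18.5 CPM in CG, a 2.30-fold drop (log2 -1.20, standard error 0.22, adjusted p = 0.00327). The 2 other calls were smaller, and without G1 both just missed the threshold with folds of the same sign. nr2f1a (scaffold152, bases 297497 to 303917, + strand) had 11, 13.7 and 14.5 CPM in EG and 21.1, 19.1 and 19.9 CPM in CG (log2 fold change -0.62, adjusted p = 0.0131; -0.58 and 0.0557 without G1). Nr2f6 (19348; scaffold10, bases 2852742 to 2856961, + strand) had 11.5, 11 and 11.5 CPM in EG and 21.0, 16 and 15.5 CPM in CG (log2 fold change -0.63, adjusted p = 0.0152; -0.48 and 0.0671 without G1).

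The other Nr2f6 genes did not go the same way. Nr2f6 (03685) had 9.81, 6.38 and 5.76 CPM in EG and 2.24, 1.19 and 9.63 CPM in CG, so that G3 alone brought the groups to overlap (adjusted p = 0.389); without G3 the log2 fold change was 2.09 (adjusted p = 0.00787). Nr2f6 (03684), 6.23 kb from it on the same strand with 0 genes between, had 0.800, 0.667 and 1.61 CPM in EG and 0.811, 0.372 and 0.280 CPM in CG and did not pass (adjusted p = 0.173). Summed over the 6 genes, COUP-TF transcripts had 43.4 to 49.1 CPM in EG and 74.0 to 85.5 CPM in CG. The testicular receptors are relatives that compete with RXR partners for their sites. NR2C2 (scaffold158, bases 640345 to 644859, - strand) had 2.27, 3.11 and 3.36 CPM in EG, against 8.78, 7.62 and 8.15 CPM in CG, and fell 2.81-fold (log2 -1.49, standard error 0.22, adjusted p = 0.0012). nr2c1-a, its usual partner, had 18.4, 22.0 and 22.4 CPM in EG and 23.3, 20.9 and 19.4 CPM in CG (adjusted p = 0.928), and its small negative value turned positive without G1 or without Ga. The neural and retinal receptors of this branch were at the edge of detection: nr2e1 had 2 counts in each EG library and 0 in CG, and NR2E3 had 0, 4 and 5 counts in EG and 0 in CG.

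The vitamin D receptor and the oestrogen-related receptors were lower. vdra (16227; scaffold54, bases 851121 to 858261, - strand) had 6.29, 7.37 and 6.93 CPM in EG, against 13.1, 12.6 and 8.09 CPM in CG (log2 fold change -0.72, standard error 0.22, adjusted p = 0.0291). This call was the least firm of the 20: the adjusted p was 0.113, 0.107, 0.0723 and 0.06 without G1, G2, Ga and Gc. The second gene, vdra (18413), varied widely, with 3.12, 2.70 and 7.16 CPM in EG and 7.78, 18.4 and 3.64 CPM in CG, and did not pass (adjusted p = 0.134); without G3 it did, at -1.60 (adjusted p = 0.046). Of 11 tested genes of vitamin D supply and removal, 4 rose and 4 fell. The share called was 72.7%, against 45.4% of all tested genes. CYP24A1, which inactivates vitamin D and is itself induced through VDR in mammals, had 295, 976 and 306 CPM in EG and 42.0, 66.8 and 17.2 CPM in CG (log2 fold change 3.65). CUBN, a receptor that takes up the vitamin D carrier, rose by 2.11, whereas CYP2R1, the liver 25-hydroxylase, had 6.72, 6.41 and 8.77 CPM in EG and 20.1, 23.0 and 12.1 CPM in CG (-1.33) and Cyp27a1 (04427) fell by 1.27. Without G3, or with library totals, 2 of the 11 rose.

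ESRR genes encode orphan receptors that, with PGC-1 coactivators, drive mitochondrial genes. Esrrg (06992; scaffold165, bases 178106 to 180817, - strand) had 2.93, 1.56 and 1.58 CPM in EG, against 6.28, 5.32 and 6.38 CPM in CG, a 2.95-fold drop (log2 -1.56, standard error 0.30, adjusted p = 0.00416). Esrrg (00727; scaffold498, bases 49979 to 87953, - strand) had 7.46, 5.56 and 10.4 CPM in EG and 15.9, 14.1 and 14.4 CPM in CG (log2 fold change -0.92, adjusted p = 0.0135, 0.0526 without G1). The Esrrb genes were nearly silent, with 1, 2 and 0 counts in EG and 1, 0 and 7 in CG for (13893), and 0 in EG and 1, 0 and 0 in CG for (13956). Their coactivator gene Ppargc1b, which encodes PGC-1 beta (scaffold155, bases 404635 to 430126, - strand), had 9.09, 14 and 8.07 CPM in EG, against 46.1, 27.9 and 35.0 CPM in CG. It fell 3.50-fold (log2 -1.81, standard error 0.27, adjusted p = 0.0012). PPARGC1A, the gene of PGC-1 alpha, was rare and uneven, with 0.0267, 1.11 and 0.292 CPM in EG and 0.0477, 0.256 and 0.420 CPM in CG (adjusted p = 0.51). Pprc1, the third gene of that coactivator family, which the rule did not select, had 100, 82.2 and 63.1 CPM in EG and 6.75, 6.46 and 6.16 CPM in CG (log2 fold change 3.66), opposite to Ppargc1b.

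Steroid receptors reside in the cytoplasm or nucleus with chaperones until a hormone binds. Of 7 tested genes for the glucocorticoid, mineralocorticoid and oestrogen receptors 0 passed (0 at an unadjusted p under 0.05, 0 by DESeq2), the lowest adjusted p was 0.224, and log2 fold changes ran from -0.31 to 0.28. The glucocorticoid receptor gene nr3c1 (03330) had 22.6, 20.5 and 25.6 CPM in EG and 19.5, 22.2 and 14.7 CPM in CG. nr3c1 (04877) had 6.80, 6.22 and 8.95 CPM in EG and 9.76, 8.37 and 9.16 CPM in CG, and with library totals it passed at -0.66 (adjusted p = 0.0306). It also passed with limma on log2(FPKM + 1) and log2(FPKM + 0.1), at -0.54 and -0.65 (adjusted p = 0.0339 and 0.0352). nr3c1 (04878), a short model 707 bases downstream of it on scaffold46, had 2.51, 2.79 and 3.36 CPM in EG and 3.39, 2.67 and 3.30 CPM in CG; the files do not say whether these neighbours are parts of the same gene, and the same holds for rxraa with rxrab and for the Nr2f6 pair. The log2 ratio of nr3c1 (03330) to nr3c1 (04877) was 1.74, 1.72 and 1.51 in EG and 1.00, 1.41 and 0.69 in CG, so the balance between them lay further toward (03330) in every EG library. NR3C2, the mineralocorticoid receptor gene, had 12.5, 18.0 and 19.6 CPM in EG and 22.9, 16.3 and 16.4 CPM in CG.

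**Figure D3:**
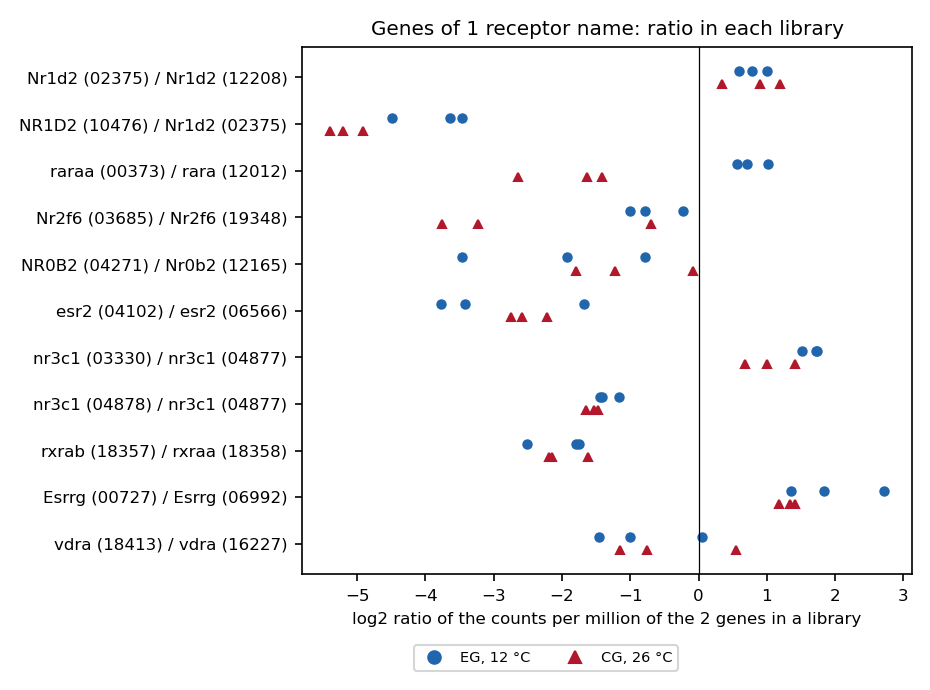
Log2 ratio of the CPM of 2 genes that match the same receptor, in each library, with EG as blue circles and CG as red triangles. Of the 11 pairs the clearest separation is raraa over rara, from 0.56 to 1.02 in EG and from -2.65 to -1.41 in CG, while pairs such as Nr1d2 (02375) over Nr1d2 (12208) overlap.

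Among oestrogen receptors, esr2 (06566) was the most abundant gene in CG of the receptors selected by the name rule. It had 127, 151 and 189 CPM in EG and 132, 131 and 126 CPM in CG (adjusted p = 0.248). esr1 had 14.9, 15.8 and 24.5 CPM in EG and 22.1, 24.6 and 19.4 CPM in CG (adjusted p = 0.352), and without Gc it passed at -0.52 (adjusted p = 0.034). esr2 (04102) turned on Gb, with 11.8, 47.5 and 13.9 CPM in EG and 22.0, 28.1 and 18.8 CPM in CG. Its log2 fold change of 0.09 (adjusted p = 0.902) became -0.84 without Gb (adjusted p = 0.017), the library with few pancreas markers, whose part in this was not tested. Genes induced by oestrogen receptors were scarcely present in these juveniles, with a summed level of 7.41 to 27.1 CPM in EG and 9.94 to 14.5 CPM in CG; 2 of 7 tested fell, both matched to ZP3, an egg coat protein, of which ZP3 (04478) had 0.480, 0.730 and 0.380 CPM in EG and 1.96, 1.79 and 0.896 CPM in CG. Leaving out any library left 0 or 1 of these calls. The median of the 7 was positive, 0.26, and calls in the other direction appeared in some settings, with 2 higher and 1 lower by DESeq2, 2 higher without Ga and 1 higher without G2 or without G3.

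Among genes that act with or downstream of steroid receptors, or that make and remove steroids, the share called varied by list. Of all tested genes 45.4% were called. It was 69.2% for chaperones, 72.2% for glucocorticoid receptor targets and 30.8% for steroid synthesis and removal. Some other lists were similarly high: 72.7% for vitamin D supply and removal, 69.2% for thyroid hormone supply and removal and 68.8% for coactivators. Of 13 tested chaperones that hold steroid receptors, 8 rose and 1 fell, and the median log2 fold change was 0.78; with library totals 5 rose and 2 fell. FKBP5, a cochaperone that lowers hormone binding of the glucocorticoid receptor and is induced by it in mammals, had 885, 918 and 911 CPM in EG, against 80.0, 117 and 19.7 CPM in CG (log2 fold change 3.65, adjusted p = 0.00155). The EG libraries were nearly equal and the CG libraries spread widely below them. Hspa4 (03334), a nucleotide exchange factor of HSP70, had 81.7, 77.8 and 60.6 CPM in EG and 9.71, 11.7 and 11.9 CPM in CG (2.73), cdc37, a kinase cochaperone, rose by 1.32 and PTGES3, the cochaperone p23, by 1.11. Of 18 tested glucocorticoid receptor targets 8 rose and 5 fell (median 0.72). Besides FKBP5, the genes with the largest rises were the NF-kappa-B inhibitor genes Nfkbia (05682) and Nfkbia (05681), by 2.65 and 2.59, and sgk1 (13918), a kinase of ion transport, with 140, 86.0 and 53.5 CPM in EG and 17.7, 14.9 and 19.7 CPM in CG (2.42). Without G1 or Gb, 3 of the targets fell. In steroid synthesis and removal 2 of 13 tested genes were higher and 2 lower: star, the cholesterol carrier of steroid-making mitochondria, rose by 1.53 and Hsd17b7 by 0.96, and Hsd3b7 and HSD17B4 fell by 1.02 and 0.64. Leaving out G1, G2, G3 or Gc left 0 or 1 that rose, and without G1 or G2 1 fell.

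The immediate early receptors of the NR4A group, which need no ligand and respond to stress and cAMP, were almost absent. nr4a1 (09142) had 0.746, 0.794 and 0.234 CPM in EG and 0.501, 0.325 and 0.140 CPM in CG, Nr4a3 had 0.640, 0.127 and 0.439 CPM in EG and 0.262, 0.163 and 0.280 CPM in CG, and nr4a1 (18005) had 0 counts in EG and 1, 1 and 0 in CG. Of the 2 tested genes 0 passed (0 at an unadjusted p under 0.05, 0 by DESeq2, lowest adjusted p = 0.331), with standard errors near 0.68 on the log2 scale, so a difference of 2-fold was not detectable at this depth. The thyroid hormone receptors themselves gave 0 genes, because the only names that began as theirs were those of the thyroid receptor associated protein THRAP3, a splicing and coactivator protein. THRAP3 (16006; scaffold60, bases 1465393 to 1472331, - strand) had 160, 126 and 114 CPM in EG and 48.7, 47.8 and 52.2 CPM in CG, a 2.69-fold rise (log2 1.43, standard error 0.16, adjusted p = 0.000425). thrap3 (09047) had 21.4, 17.5 and 24.8 CPM in EG and 18.9, 18.8 and 27.3 CPM in CG and did not pass (adjusted p = 0.924). Of 13 tested genes that carry, activate or inactivate thyroid hormone, 4 rose and 5 fell. The share called was 69.2%, against 45.4% of all tested genes. dio3, the inactivating deiodinase, had 18.4, 33.2 and 13.5 CPM in EG and 2.31, 7.90 and 2.46 CPM in CG (log2 fold change 2.35), and the activating deiodinase dio2 (05892) had 3.36, 3.52 and 4.88 CPM in EG and 11.1, 9.02 and 7.78 CPM in CG (-1.25). KLF9, a target of both thyroid hormone and glucocorticoids, rose by 1.36.

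Of 11 tested nuclear receptor genes that the name rule left out, 4 rose and 2 fell, and with library totals 1 rose. hnf4a, the liver master receptor, had 165, 188 and 222 CPM in EG and 86.7, 78.5 and 82.8 CPM in CG (log2 fold change 1.21). Nr1h4, the bile acid receptor FXR, was matched by 2 genes that went opposite ways: Nr1h4 (17624) had 12.7, 14.6 and 12.9 CPM in EG and 87.2, 87.6 and 100 CPM in CG (-2.77), and Nr1h4 (18444) had 788, 570 and 564 CPM in EG and 431, 345 and 369 CPM in CG (0.75). RORB (19404) fell by 1.45. Among coactivators outside the 55 genes, 10 of 32 tested rose and 12 fell, and with library totals 6 rose and 15 fell. With TMM 68.8% of these coactivators were called, against 45.4% of all tested genes. Besides Pprc1, the largest changes were in the histone methyltransferase KMT2D (-2.55), the chromatin remodeller SMARCA4 (01555; 1.92) and the p160 coactivator ncoa3 (-1.70), of which KMT2D had 14.8, 21.3 and 17.3 CPM in EG and 113, 107 and 92.3 CPM in CG. Of 15 tested corepressors 3 rose and 2 fell: among them C1D rose by 2.17, and Lcor and NCOR1 fell by 1.66 and 1.14. NCOR1 (01135) had 34.1, 43.3 and 43.3 CPM in EG and 94.7, 88.5 and 83.2 CPM in CG. Of 17 tested targets of the xenobiotic receptors, 2 rose, POR, the electron donor of cytochromes P450 (3.17), and the export pump ABCC2 (1.94), and 6 fell, among them cyp2k1 (01422) and cyp2k1 (01423) by 1.27 and 1.25.

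**Figure D4:**
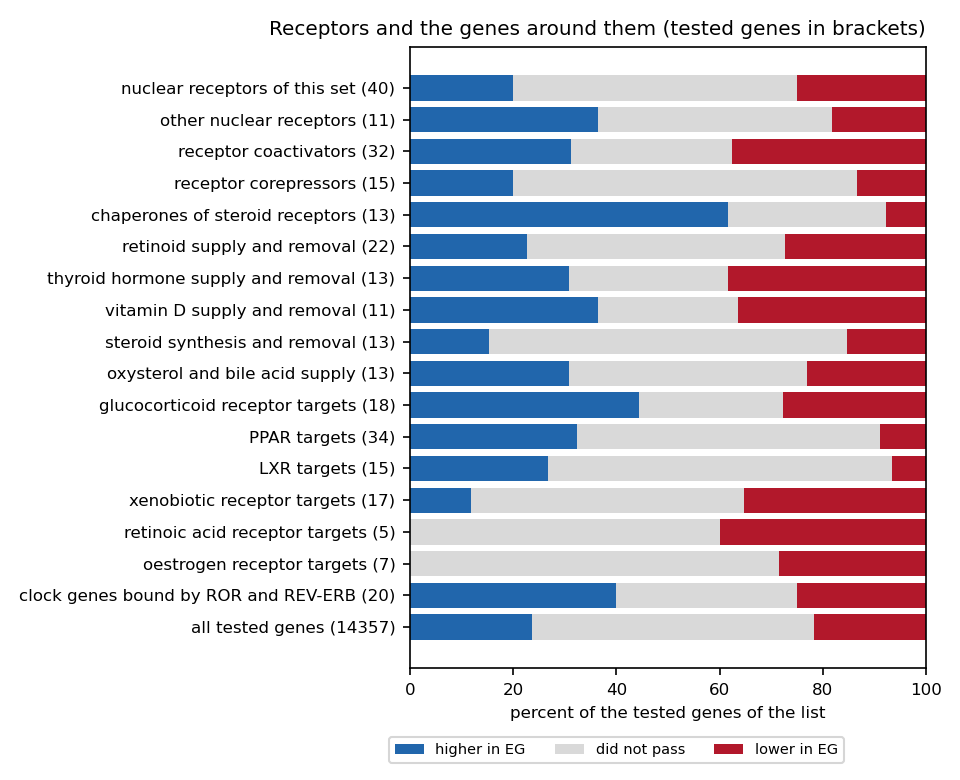
Share of the tested genes of each list that was higher in EG (blue), lower in EG (red) or did not pass (grey), in percent, with the number tested in brackets and all 14357 tested genes in the bottom bar. The receptors, with 8 of 40 higher and 10 lower, resemble the bottom bar, while 8 of 13 chaperones of steroid receptors were higher.

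The share of cell markers called varied by list, against 45.4% of all tested genes. It was 58.3% for erythrocyte and 60.9% for hepatocyte markers. It was below the share of all genes for leukocyte and macrophage (35.7%), biliary and gut epithelium (28.6%) and exocrine pancreas markers (7.14%). Of 12 tested erythrocyte markers 2 rose and 5 fell, with sums of 4480 to 7830 CPM in EG and 6710 to 16900 CPM in CG, and 2 fell without G3, 3 without Gb, 8 without G1 and 9 with library totals. Of 14 tested leukocyte and macrophage markers 1 rose and 4 fell, with sums of 96.1 to 198 CPM in EG and 161 to 252 CPM in CG, and without G3 or Gb 2 fell. Among biliary and gut epithelium markers 1 of 14 tested rose and 3 fell, and among pancreas markers 1 of 14 fell. Of 23 hepatocyte markers 11 rose and 3 fell, and with library totals 6 rose and 6 fell. The part of any of these cells in the receptor results was not tested.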

How the data were processed

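Liver RNA of 6 libraries, 3 EG and 3 CG, was sequenced (Illumina, paired ends). Per the labels and the study's methods, the authors trimmed the reads, aligned them to an unpublished *T. fasciatus* genome with HISAT2 2.0.4 and used RSEM 1.2.3; build, annotation and strand setting are not given in the sources used here. They deposited raw read counts per gene and FPKM (counts scaled to gene length and library size). The table also holds their comparison of the groups (fold changes with p-values), which was not used. Counts, at 31150888 to 45548824 per library, were tested with edgeR 4.0.16 (R 4.3.3; filterByExpr, TMM, quasi-likelihood), the design being group only; FPKM served to compare levels between genes. Alternatives were library totals, upper quartile factors, DESeq2 1.42.0, no filter, a mean of at least 1 CPM, limma 3.58.1 on log2(FPKM + 1) and log2(FPKM + 0.1), and leaving out each library. The test was tested on simulated data.

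Members, gene lists and tests were chosen with earlier results of these data known. Every member was named. Those with an adjusted p under 0.05 were given in full, and of each list up to 4 called genes with the largest change and a mean of at least 1 CPM, apart from some that are not reported here. Nearby genes of the same name may share reads. TMM factors were 0.82375 to 0.97245 in EG and 1.0976 to 1.1465 in CG, and FPKM lacks that scaling. Log2 fold changes in FPKM are therefore shifted downward from those in TMM-scaled CPM, so that rises are smaller and falls larger. With 3 libraries per group, p-values set the difference between groups against the spread between pools of fish. No exact test could go below p = 0.1. No sequences are shown.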

Additional observations from a re-analysis of the deposited data

How the results depend on the processing

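Of the 20 called genes, 16 passed in all 13 alternatives. The count of genes higher in EG was 9 to 10 throughout, and the count lower was 11, against 14 with library totals, 12 with upper quartile factors, 14 and 13 with limma on log2(FPKM + 1) and log2(FPKM + 0.1), and 7 to 12 when a library was left out. The 7, without G1, lacked Esrrg (00727), nr2f1a, vdra (16227) and Nr2f6 (19348). No paired analysis was possible because the groups share no replicate numbers. Scaling mattered for small differences: the median log2 fold change of all genes was -0.03 with TMM and -0.37 with library totals, and 52.2% of all calls were higher with TMM, 31% with library totals, 40% with upper quartile factors and 29.2% with limma on log2(FPKM + 1). Past 2-fold, 47% of calls were higher with TMM and 26.6% with library totals. Genes that did not pass changed sign as follows, on the log2 scale. With library totals nr3c1 (03330) was at -0.055, esr2 (04102) at -0.19, esr2 (06566) at -0.073 and Rora (11290) at -0.10. With upper quartile factors esr2 (04102) was at -0.11. With limma on log2(FPKM + 1) and log2(FPKM + 0.1), nr3c1 (03330) was at -0.039 and -0.041, esr2 (04102) at -0.47 and -0.52, esr2 (06566) at -0.098 and -0.099, Rora (11290) at -0.028 and -0.067, and Nr0b2 (12165) at -0.027 and -0.033. Leaving out each library in turn gave -0.84 to 0.42 for esr2 (04102), -0.15 to 0.17 for thrap3 (09047), -0.036 to 0.54 for Nr0b2 (12165), -0.078 to 0.066 for nr2c1-a, -0.28 to 0.029 for NR3C2 and -0.59 to 1.61 for PPARGC1A. The cause was not tested. The lowest mean count of a called gene was 155.5 per library; 5 of the 24 genes that did not pass were under 50.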
